A study of Mus musculus with 20 samples.

Results

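Semaphorins, plexins and neuropilins were examined in the cortex of mice with a heterozygous Foxp2 deletion and of wild-type mice. The members are the protein-coding genes of the count table whose symbol starts with Sema or Plxn, together with Nrp1 and Nrp2. That gave 31 of 25317 gene identifiers: 20 semaphorins, 9 plexins and 2 neuropilins. The 20 semaphorins comprise 7 of class 3, 6 of class 4, 2 of class 5, 4 of class 6 and Sema7a, and the 9 plexins comprise 4 of class A, 3 of class B, Plxnc1 and Plxnd1. A pair of genes named Plxna4os, antisense to Plxna4, were left out because they code for no protein.

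All animals were 3-month-old C57BL/6 mice. Cortex was dissected from 1 animal per sample, GFP-tagged ribosomes were captured on beads coated with anti-GFP serum (bacTRAP, which recovers RNA under translation in the tagged cells; this fraction is called IP), and an aliquot of the same lysate taken just before the pull-down served as Input. The 4 groups compared were IP and Input of 5 wild-type animals (wt734, wt736, wt785, wtBT13, wtBT14) and of 3 animals with the heterozygous Foxp2 deletion (het729, het786, hetBT13). The sources used here do not give which cells carried the GFP tag, or which Cre line or promoter produced the cortical deletion. Another 4 heterozygous Input libraries, whose titles end in IX or IXX, come from 2 animals without IP and entered no main comparison.

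Semaphorins are guidance cues that steer growing axons and, in the mature cortex, act on spines and synapses. Class 3 members are secreted, whereas classes 4 to 6 are held in the membrane by a transmembrane segment and Sema7a by a lipid anchor. Plexins are their main receptors and act inside the cell through a GTPase-activating domain, and neuropilins are the co-receptors through which most class 3 semaphorins bind class A plexins. Foxp2 is a forkhead transcription factor, expressed in the cortex chiefly by deep-layer corticothalamic neurons.

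The promoters of the members were searched for words that forkhead proteins are known to bind, and those holding CAAATT, a short word described for FOXP2, are shown because Foxp2 is the deleted gene. The 250 bases upstream of annotated starts were taken from RefSeq (GRCm38.p6), where 26 of the 31 members had an entry, with 37 windows. CAAATT on either strand was found in 3 of 37 member windows (8.11%) and in 9.8% of all 32851 windows. The members were Sema3e, Sema4f and Sema6d. The Sema6d match lies before a start internal to the gene and is not printed. Sema3e (chr5:14025026-14025275, plus strand) and Sema4f (chr6:82939770-82940019, minus strand) are printed below 5′ to 3′ on the strand of the gene, with the word and its reverse complement in capitals.
Sema3e: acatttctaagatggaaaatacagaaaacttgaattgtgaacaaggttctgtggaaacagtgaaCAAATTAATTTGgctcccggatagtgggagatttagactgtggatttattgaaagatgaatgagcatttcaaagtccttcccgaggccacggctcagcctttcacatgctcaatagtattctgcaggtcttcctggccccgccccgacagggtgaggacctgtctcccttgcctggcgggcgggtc
Sema4f: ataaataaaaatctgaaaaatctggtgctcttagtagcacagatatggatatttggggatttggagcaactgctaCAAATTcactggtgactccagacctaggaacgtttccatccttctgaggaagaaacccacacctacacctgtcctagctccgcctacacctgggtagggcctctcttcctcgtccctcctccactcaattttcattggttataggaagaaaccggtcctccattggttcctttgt

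In Sema3e the word occurs on both strands, 186 and 180 bases upstream of the start, so that the joined run CAAATTAATTTG reads the same on either strand. This run was noticed after the search and then counted: it is in 3 of 32851 windows (0.00913%). In Sema4f the word starts 175 bases upstream. The other words, also searched on both strands, were TGTTTAC (3.17% of all windows, no member window), TGTTTAT (4.16%, in Sema4d), TATTTAT (5.17%, in 3 windows of Sema4f and Sema6d) and TATTTGT (3.29%, in Sema5a). Words can overlap one another, and a match describes the letters only.

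Library totals ran from 2782934 to 5754169 counts in the 16 compared libraries. Mitochondrial genes took 0.398% of the counts in IP of het729 and 0.0616% to 0.127% in the other IP libraries. The part of this in the values of het729 was not tested. Foxp2 was 28.4 ± 3.57 CPM in heterozygous and 47.9 ± 11.3 CPM in wild-type Input (SD, n = 3 and 5), and the groups did not overlap. In IP the values were 47.4 ± 13.1 and 71.1 ± 21.7 CPM, with overlapping groups: het729 (52.9) and het786 (56.8) lay above wtBT13 (46.3). The counts cover the whole gene. CPM are the counts relative to library depth, with TMM scaling over the 16 libraries. Smart-seq2 libraries keep neither strand nor single molecules, so the size of a count alone understates its error, and reads of overlapping genes cannot be told apart. The SE and p-values of the tests below rest on the spread between or within animals. Among the members, 10.71% of the exon bases of Plxna1, 7.27% of Sema4c and 2.68% of Plxnb1 overlap exons of another gene.

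Members were first ordered by their level per kilobase of exon in wild-type Input, a scale on which genes of different length can be compared. Sema4f, a transmembrane semaphorin found at synapses, was highest at 6.66 ± 0.506 CPM per kilobase (SD, n = 5), above the range of every other member. Plxna2, a receptor for class 3 and class 6 semaphorins, followed at 4.42 ± 0.462, then Sema4a at 4.14 ± 0.216 and Sema4d at 3.54 ± 0.785, whose ranges overlapped from one to the next. Of the 30 neighbouring pairs in this order, 2 had ranges that did not overlap: Sema4f above Plxna2, and Plxnb1 above Sema5a. Nrp1 stood at 1.83 ± 0.121 and Sema3e at 1.68 ± 0.115 CPM per kilobase, in the middle of the order. At the low end, Sema3g was detected with 3 counts in 1 of 20 libraries, and Sema4c, a ligand of Plxnb2, with 45 counts in all. Neither passed the filter on low counts in any comparison.

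**Figure D1:**
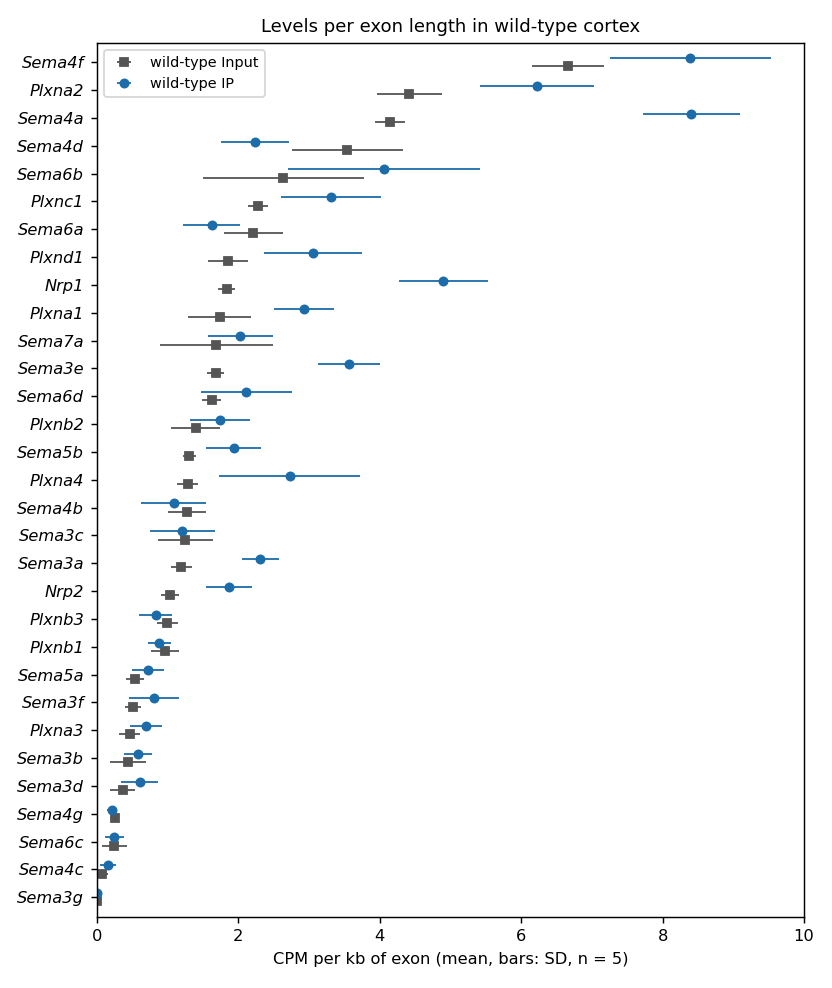
Level of each member per kilobase of exon (CPM per kilobase) in wild-type Input (squares) and wild-type IP (circles); points are means and bars SD over 5 animals. Sema4f is highest in Input at 6.66 ± 0.506, and Sema4a and Sema4f share the top of IP at 8.41 ± 0.688 and 8.39 ± 1.14.

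In IP the order differed. Sema4a at 8.41 ± 0.688 and Sema4f at 8.39 ± 1.14 CPM per kilobase led it, Nrp1 moved from rank 9 to rank 4 at 4.9 ± 0.633, and Sema3e from rank 12 to rank 6 at 3.57. Sema4d moved from rank 4 to rank 12 at 2.24, and Sema6a from rank 7 to rank 18 at 1.62 CPM per kilobase.

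The first comparison asked how the ribosome-bound RNA of the tagged cells differed from the RNA of the whole cortex lysate, whether bound to ribosomes or not. Both neuropilins, 3 of 4 class A plexins, Plxnc1, Plxnd1 and 6 semaphorins were higher in wild-type IP, and Sema4d and Sema6a were lower. In edgeR's quasi-likelihood test with animal as a block, 15 of the 28 members tested (53.6%) passed an adjusted p of 0.05, against 54.1% of the 14797 genes tested. The 13 higher members are 46.4% of those tested, where 28.5% of all genes were higher. The 2 lower members are 7.14%, where 25.6% of all genes were lower. The median log2 difference was 0.51 over the members and 0.03 over all genes. Because these are bulk samples, fewer cells of a type and less RNA per cell cannot be told apart. A difference in how much of an RNA is bound to ribosomes cannot be told apart from these either.

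Nrp1, the co-receptor of Sema3a, had the largest difference among the members. In wild-type IP it was 45.9, 52.1, 54.5, 48.6 and 38.6 CPM in wt734, wt736, wt785, wtBT13 and wtBT14, the order kept for all wild-type values that follow. In Input of the same animals it was 18.8, 16.5, 17.0, 19.2 and 18.3 CPM. Every IP library lay above every Input library, and the log2 difference was 1.41 (SE 0.12, edgeR adjusted p = 5.45e-09). In the heterozygous animals het729, het786 and hetBT13, again in an order kept below, Nrp1 was 57.2, 58.3 and 46.6 CPM in IP and 18.1, 15.6 and 11.0 CPM in Input. There too the fractions did not overlap, with a log2 difference of 1.85 (edgeR adjusted p = 2.69e-08).

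Nrp2, the co-receptor of Sema3f, was 26.5, 17.7, 20.3, 26.0 and 20.5 CPM in wild-type IP against 12.5, 12.7, 14.3, 10.6 and 10.9 CPM in Input. The fractions did not overlap, and Nrp2 was higher in IP by 0.85 on the log2 scale (SE 0.17, edgeR adjusted p = 0.00017). In heterozygous animals it was 13.2, 23.1 and 13.8 CPM in IP and 13.0, 12 and 11.4 CPM in Input. Only het786 stood clearly apart there, and the log2 difference of 0.42 did not pass (edgeR adjusted p = 0.132).

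Among the receptors, Plxna4, which pairs with neuropilins for class 3 ligands, was the plexin with the largest difference in wild type. It was 37.4, 22.8, 32.1, 39.3 and 60.9 CPM in IP and 16.9, 18.1, 20.5, 15.4 and 19.9 CPM in Input. All IP values exceeded all Input values, with wtBT14 highest by a wide margin, and the log2 difference was 1.03 (SE 0.16, edgeR adjusted p = 1.08e-05). Plxna1, Plxnd1, Plxnc1 and Plxna2 were also higher, by 0.77, 0.70, 0.52 and 0.49 on the log2 scale. Plxna2 was the plexin with the highest CPM, at 107 ± 13.9 in IP and 75.9 ± 7.94 in Input (SD, n = 5). No class B plexin passed the test: Plxnb1, the receptor of Sema4d, differed by -0.12, Plxnb2 by 0.31 and Plxnb3 by -0.29.

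Among the secreted ligands, Sema3e, which binds Plxnd1 without a neuropilin, was 26.5, 37.1, 32.7, 35.0 and 34.5 CPM in wild-type IP and 16.6, 14.8, 14.3, 15.4 and 16.7 CPM in Input. The fractions were well separated (log2 difference 1.08, SE 0.14, edgeR adjusted p = 1.15e-06). Sema3a, the classic axon-repelling ligand, was 32.3, 33.4, 31.7, 26.4 and 36.7 CPM in IP and 16.6, 17.0, 14.0, 15.4 and 19.6 CPM in Input. It was higher in IP by 0.95 (SE 0.13, edgeR adjusted p = 1.97e-06). The other 4 class 3 members tested did not pass, with log2 differences of 0.72 for Sema3d, 0.63 for Sema3f, 0.41 for Sema3b and -0.06 for Sema3c. Sema3d passed without wt736, without hetBT13 and without the filter on low counts.

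The membrane-bound ligands went in both directions. Sema4a was 49.0, 44.7, 43.4, 40.7 and 49.4 CPM in wild-type IP and 22.9, 21.1, 22.2, 21.7 and 24.1 CPM in Input, a log2 difference of 1.02 (SE 0.12, edgeR adjusted p = 2.2e-07). In heterozygous animals it was 37.2, 52.9 and 34.3 CPM in IP, again above every Input value (log2 difference 1.14, edgeR adjusted p = 6.45e-06). Sema4d, best known as a ligand of B-class plexins and abundant in oligodendrocytes, was 14.7, 14.9, 22.2, 19.9 and 14.2 CPM in IP and 26.2, 20, 25.4, 36.6 and 27.6 CPM in Input. It was lower in IP in 5 of 5 wild-type animals (log2 difference -0.66, SE 0.14, edgeR adjusted p = 0.000574), although the ranges overlapped.

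Sema6a, a ligand of Plxna2 and Plxna4 that is also made by oligodendrocytes, was 16.7, 12.3, 15, 18.1 and 9.13 CPM in IP and 18.0, 17.0, 17.0, 25.8 and 19.3 CPM in Input. It was lower in IP in each of the 8 animals, with overlapping ranges, and the log2 difference in wild type was -0.45 (SE 0.16, edgeR adjusted p = 0.022). That call was lost without wtBT13 (adjusted p = 0.059) and without wtBT14 (adjusted p = 0.112). Sema6b, Sema5b and Sema4f were higher by 0.64, 0.55 and 0.33. Sema5b lost its call without wt734 (adjusted p = 0.0751), and Sema4f lost its call in 7 of 14 alternatives, over which its adjusted p ran from 0.0141 to 0.118. These were the RLE size factors, DESeq2 and the fits without het729, wt734, wt736, wt785 or wtBT13.

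Markers of several other cell types moved with this comparison, and their part in the member differences was not tested. Of 14 oligodendrocyte markers, 12 were lower in wild-type IP, and their summed level was 1211 to 1794 CPM in IP against 4286 to 5888 CPM in Input. Of 14 astrocyte markers 12 were lower and 1 higher, and 8 of 12 microglial markers were lower. Of 10 interneuron markers 9 were lower and 1 higher, and of 7 glutamatergic markers 6 were higher and 1 lower. The summed glutamatergic level overlapped between fractions, at 1633 to 1950 CPM in wild-type IP and 1378 to 1994 CPM in Input. Of 10 markers of layer 6 corticothalamic neurons, 5 were higher and 1 was lower. Other neuronal lists leaned the other way: 5 of 7 layer 5 markers were lower and 1 higher (median log2 difference -0.71), and 6 of 9 upper layer markers were lower and 2 higher (median -0.72). Of 6 oligodendrocyte precursor markers tested 1 was higher and 1 lower (median 0.02), and 3 of 6 mural markers were lower (median -0.39). Of 3 endothelial markers tested 1 was lower (median -0.12). No gene of these lists was at 0 in all 16 libraries. Over the 8 animals, the IP-to-Input ratio of the summed oligodendrocyte markers was highest in het729 (0.393) and lowest in het786 (0.198).

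**Figure D2:**
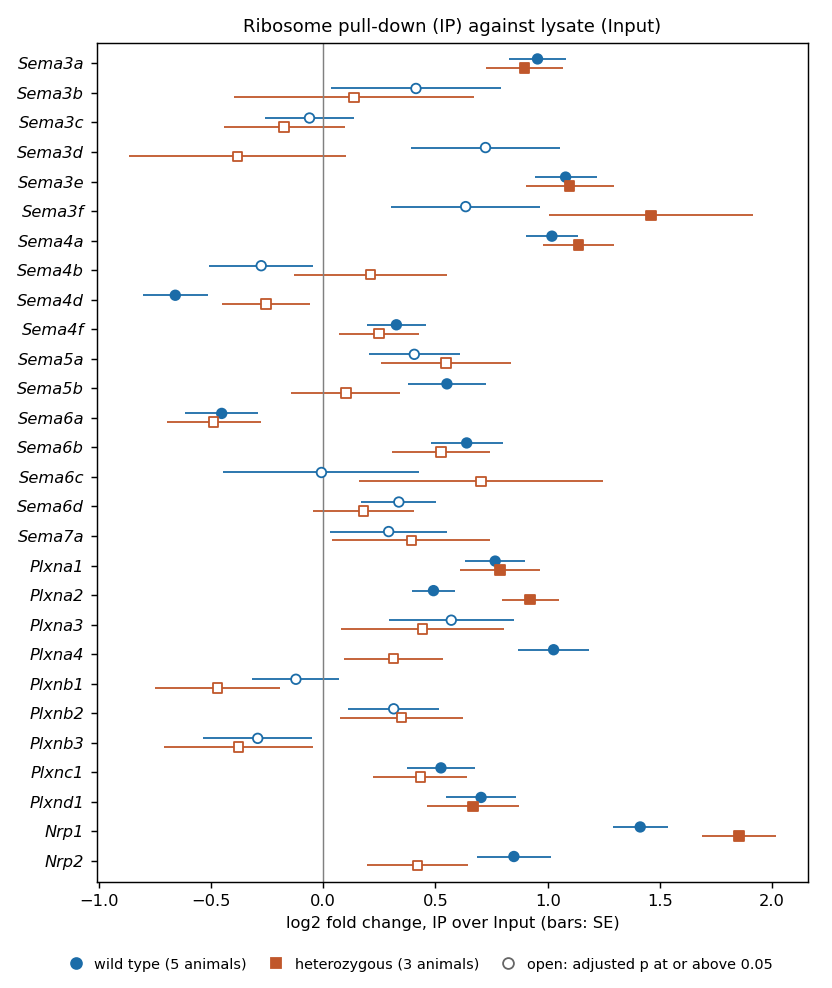
Log2 difference of IP against Input for each of the 28 members tested, in wild type and in heterozygous animals, with SE from edgeR; filled points passed an adjusted p of 0.05. Nrp1 is farthest to the right in both genotypes, at 1.41 and 1.85, and Sema4d (-0.66) and Sema6a (-0.45) are the members called lower in wild type.

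In heterozygous animals 8 of 28 members (28.6%) passed, all higher in IP, where 44.8% of all genes passed, 22.6% higher and 22.1% lower. Nrp1, Sema4a, Sema3e, Sema3a, Plxna2, Plxna1 and Plxnd1 passed in both genotypes. Sema3f, the ligand of Nrp2, passed in heterozygous animals and not in wild type, at 1.46 (edgeR adjusted p = 0.0126), and lost the call without het786 (adjusted p = 0.145). Plxnd1 at 0.67 lost it without hetBT13 (adjusted p = 0.0765). Plxna4 differed by 0.31 (adjusted p = 0.252), Sema4d by -0.26 (adjusted p = 0.298) and Sema6a by -0.49 (adjusted p = 0.0628). Sema6a passed with RLE size factors, with a count minimum of 50, without het729 and without wtBT14.

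Whether the genotypes differed in their IP-to-Input difference was tested directly. No member passed (edgeR adjusted p = 1 for each), and 3 of 28 (10.7%) had an unadjusted p below 0.05, against 3.07% of all genes. These were Plxna2 at 0.43, Plxna4 at -0.71 and Nrp1 at 0.44, each as heterozygous minus wild type on the log2 scale. Their unadjusted p by edgeR were 0.0128, 0.0154 and 0.0482, with an adjusted p = 1. The calls present in one genotype and absent in the other are therefore not shown to differ between genotypes.

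Known ligands and receptors can be set side by side in wild-type IP. Sema3a (32.1 ± 3.71 CPM) stood beside Nrp1 (47.9 ± 6.19) and Plxna4 (38.5 ± 14.1), and all 3 were higher in IP. For Sema3e and its receptor Plxnd1, the values were 33.1 ± 4.05 and 22.3 CPM, both higher in IP. For Sema4d and Plxnb1 they were 17.2 ± 3.67 and 8.5 ± 1.5 CPM, with the ligand lower in IP and the receptor not called. Sema6a (14.2 ± 3.58 CPM) was lower in IP while its receptors Plxna2 and Plxna4 were higher. Sema6d (22.3 CPM) was not called and Plxna1 (26.5 CPM) was higher. Sema7a (6.69 CPM) was not called and Plxnc1 (27.6 CPM) was higher. Sema3f (4.2 CPM) and Plxna3 (5.45 CPM) were not called, and Nrp2 (22.2 CPM) was higher. Sema4c was too low to test, and Plxnb2 (13.4 CPM) was not called. Neither Sema5a (13.6 CPM) nor Plxnb3 (5.4 CPM) was called. No test was made of these pairs.

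**Figure D3:**
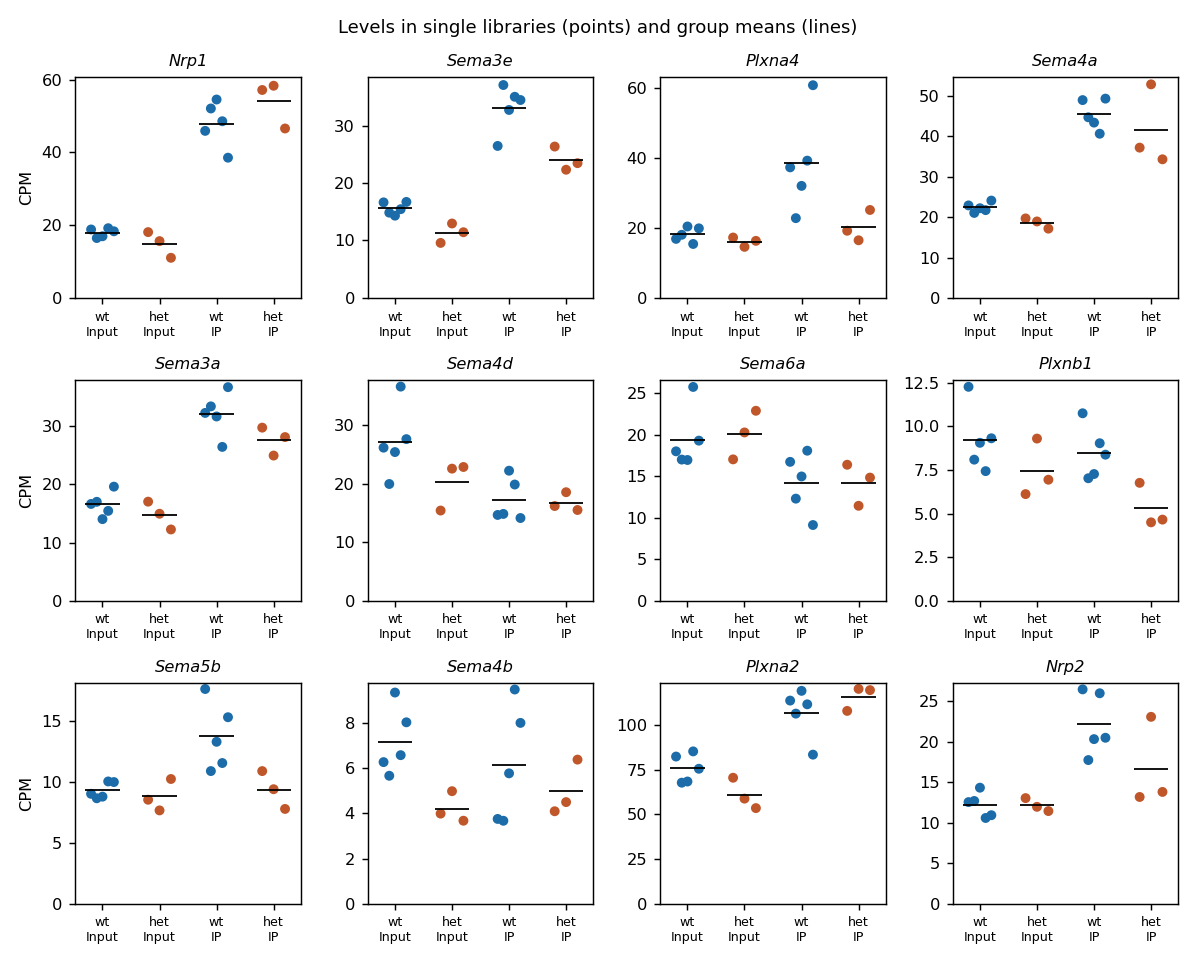
CPM in every compared library of the members given by name, IP and Input, wild-type animals in blue and heterozygous in orange, with a line at each group mean. Nrp1 IP values (38.6 to 58.3 CPM) lie above all its Input values (11.0 to 19.2 CPM). Sema3e is lower in the heterozygous than in the wild-type libraries shown in both fractions, without passing the test (edgeR adjusted p = 0.981 in IP and 0.670 in Input). The IX and IXX libraries, with which its Input values overlap, are not shown.

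The second comparison asked whether the Foxp2 deletion altered the members. No member passed in IP (0 of 29 tested; 0 of 14755 genes) or in Input (0 of 25; 0 of 13870 genes) by edgeR. Foxp2, the deleted gene, did not pass either. Its log2 difference was -0.59 in IP (edgeR adjusted p = 0.981) and -0.76 in Input (edgeR adjusted p = 0.501). The absence of a call therefore does not show that a member is unchanged. At an unadjusted p below 0.05 there were 4 of 29 members in IP (13.8%, against 4.09% of all genes) and 4 of 25 in Input (16%, against 7.06%). All 8 values were lower in heterozygous animals, where 3.08% of all genes in IP and 3.79% in Input had such a p and were lower. In IP 24 of 29 members (82.8%) had a log2 difference below 0, where 49.3% of all genes did, and the median was -0.24 against 0.00. In Input 20 of 25 (80.0%) were below 0, where 48.7% of all genes were, and the median was -0.19 against 0.01. Below 0 in IP were 15 of 18 semaphorins and 8 of 9 plexins. Without het729 the IP median was -0.12, with 23 of 29 members below 0. With 1 animal left out, the IP count below 0 was smallest without wt734 (20 of 28, median -0.20) and largest without wtBT14 (25 of 29, median -0.19). The smallest Input count was 19 of 25, also without wt734. With the IX and IXX libraries added per animal, the Input median was -0.10, with 24 of 25 below 0.

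Among the libraries compared, Sema3e was the member whose heterozygous and wild-type animals did not overlap in either fraction, 1 of 25 members (4.0%) where 29 of 13674 genes (0.212%) were lower in this way. In IP it was 26.4, 22.3 and 23.5 CPM in heterozygous animals against 26.5, 37.1, 32.7, 35.0 and 34.5 CPM in wild type. The gap was narrow, because het729 (26.4) lay next to wt734 (26.5). The level was 72.6% of wild type, with a log2 difference of -0.46 (SE 0.15, unadjusted p = 0.0077, edgeR adjusted p = 0.981). The exact two-sided permutation test gave p = 0.0179, the smallest that 3 against 5 animals allow. It was run, here and below, on the 4 members of smallest edgeR p in each fraction, out of 29 in IP and 25 in Input. These p-values are unadjusted, describe how far the chosen members' groups separate, and are no independent support.

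In Input Sema3e was 9.58, 13.0 and 11.4 CPM in heterozygous against 16.6, 14.8, 14.3, 15.4 and 16.7 CPM in wild-type animals. The groups did not overlap, the level was 72.6% of wild type, and the log2 difference was -0.47 (SE 0.18, unadjusted p = 0.0171, edgeR adjusted p = 0.670), with an exact permutation p = 0.0179. Input and IP of an animal come from 1 lysate and are not independent. The IX and IXX libraries held 14.8 and 15.4 CPM in het730 and 23.1 and 13.5 CPM in hetBT14 (scaled over 20 libraries). On that scale wild-type Input ran from 14.1 to 16.5 CPM, so the non-overlap did not hold with them. With them added per animal, the difference was -0.11 (edgeR adjusted p = 0.885).

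Plxna4 had the smallest p of the members in IP. It was 19.2, 16.5 and 25.2 CPM in heterozygous animals and 37.4, 22.8, 32.1, 39.3 and 60.9 CPM in wild type, or 52.7% of wild type. hetBT13 overlapped wt736. The log2 difference was -0.92 (SE 0.26, unadjusted p = 0.0038, edgeR adjusted p = 0.981; exact permutation p = 0.0536). In Input Plxna4 was 16.1 ± 1.36 against 18.2 ± 2.08 CPM (SD, n = 3 and 5), with overlapping ranges.

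Plxnb1 was 6.77, 4.5 and 4.66 CPM in heterozygous IP and 10.8, 7.03, 7.27, 9.04 and 8.38 CPM in wild-type IP. The groups did not overlap, at 62.5% of wild type (log2 difference -0.68, edgeR adjusted p = 0.981, exact permutation p = 0.0179). Sema5b, a transmembrane semaphorin with thrombospondin repeats, was 10.9, 9.38 and 7.76 CPM in heterozygous and 17.6, 10.9, 13.3, 11.5 and 15.3 CPM in wild-type IP. Its groups touched without overlapping, at 68.1% of wild type (log2 difference -0.56, edgeR adjusted p = 0.981, exact permutation p = 0.0357). These 2 members and Sema3e, 3 of 29 (10.3%), had all heterozygous IP values below all wild-type values, where 1.84% of all genes did. None lay wholly above, where 1.72% of all genes did. In Input Plxnb1 differed by -0.31 and Sema5b by -0.08, both with overlapping ranges.

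In Input, Sema4b was 3.99, 4.99 and 3.68 CPM in heterozygous and 6.27, 5.67, 9.35, 6.58 and 8.04 CPM in wild-type animals. The groups did not overlap, at 58.7% of wild type (log2 difference -0.75, SE 0.27, edgeR adjusted p = 0.670, exact permutation p = 0.0179). The IX and IXX libraries held 8.88 and 5.35 CPM in het730 and 5.42 and 8.15 CPM in hetBT14, where wild-type Input ran from 5.59 to 9.22 CPM on the same scale over 20 libraries. With them added per animal the log2 difference was -0.36 (edgeR adjusted p = 0.686), and the non-overlap did not hold over all the heterozygous Input libraries. Plxna2 was 70.5, 58.8 and 53.5 CPM in heterozygous against 82.4, 67.7, 68.4, 85.3 and 75.5 CPM in wild-type Input, at 80.4% of wild type, and het729 lay within the wild-type range (log2 difference -0.30, edgeR adjusted p = 0.679, exact permutation p = 0.0714). In IP Plxna2 went the other way, by 0.12, and Sema4b differed by -0.28, both with overlapping ranges (edgeR adjusted p = 0.981 for each). Sema4d was 15.4, 22.6 and 22.9 CPM in heterozygous Input, at 74.7% of wild type, with het786 and hetBT13 within the wild-type range (log2 difference -0.43, edgeR adjusted p = 0.683, exact permutation p = 0.125). Sema4a in Input also did not overlap, at 19.7, 18.9 and 17.2 CPM against 22.9, 21.1, 22.2, 21.7 and 24.1 CPM. It did overlap once the IX and IXX libraries were counted, at 14.0 and 19.6 CPM in het730 and 26.0 and 24.7 CPM in hetBT14, against 20.8 to 23.8 CPM in wild type on the scale over 20 libraries. Among the libraries compared, 3 of 25 members (12%) lay wholly below wild type in Input, against 2.81% of all genes, and none lay wholly above, against 2.54%. The neuropilins did not separate in either fraction: Nrp1 was 54 ± 6.47 against 47.9 ± 6.19 CPM in IP, and Nrp2 was 16.7 ± 5.54 against 22.2 ± 3.84 CPM.

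**Figure D4:**
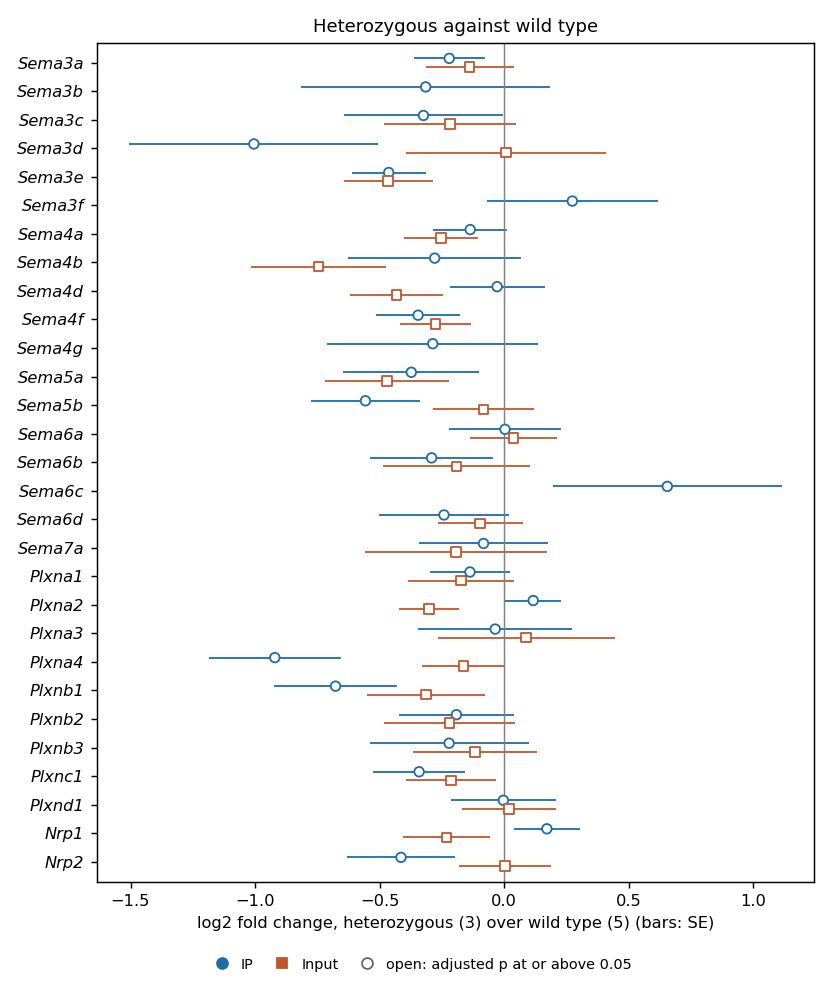
Log2 difference of heterozygous against wild-type animals for each member tested, in IP (29 members) and Input (25), with SE from edgeR. No member passed an adjusted p of 0.05, and 24 IP and 20 Input values lie below 0.

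Animal names come in 2 forms, a number alone or BT with a number, and each form holds both genotypes (2 heterozygous and 3 wild-type numbered animals, 1 and 2 of the BT form). The labels do not say what the forms mean. Sema3e in IP was 67.5% of wild type among BT animals and 75.9% among numbered ones, and in Input 71.1% and 73.8%. Plxna4 in IP was 50.3% and 58.1%, and Sema4b in Input 50.3% and 63.2%. The median over members was -0.15 (17 of 29 below 0) and -0.25 (24 of 29) in IP, and -0.25 (16 of 25) and -0.18 (21 of 25) in Input, for BT and numbered animals respectively.

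Glial and vascular markers also leaned lower in heterozygous animals, without passing the test, and their part in the member values was not tested. Of the astrocyte markers 12 of 14 were below 0 in IP (summed level 1056 to 1354 CPM in heterozygous, 1259 to 1620 CPM in wild type) and 13 of 14 in Input (2140 to 2385 against 2383 to 3073 CPM). The astrocyte median was -0.45 in IP and -0.39 in Input. At an unadjusted edgeR p below 0.05 there were 6 of 14 astrocyte markers in IP (42.9%, against 4.09% of all genes). In Input there were 8 of 14 (57.1%, against 7.06%). Below 0 for microglia were 12 of 12 in IP and 11 of 12 in Input (medians -0.37 and -0.30). For oligodendrocytes it was 10 of 14 and 11 of 14 (medians -0.13 and -0.05). In IP all 6 oligodendrocyte precursor markers tested were below 0 (median -0.62, 29.5 to 32.6 CPM in heterozygous against 30.7 to 57.4 CPM in wild type), as were 5 of 6 mural markers (median -0.64, 28.7 to 47.7 against 44.1 to 55.6 CPM) and 3 of 3 endothelial markers (median -0.45, 46.8 to 56.9 against 51.3 to 95.6 CPM). In Input the counts were 4 of 6, 4 of 5 and 2 of 3. The CPM ranges are sums over all genes of a list, including those too low to test. These were 7 precursor, 7 mural and 9 endothelial genes. Of the neuronal lists, 4 of 7 glutamatergic markers were below 0 in each fraction (medians -0.12 in IP and -0.02 in Input). For interneurons it was 5 of 10 and 3 of 10 (medians 0.01 and 0.08), and for layer 6 markers 3 of 10 and 5 of 10 (0.11 and -0.05). For layer 5 it was 4 of 7 in each (-0.17 in both), and for upper layers 6 of 9 in each (-0.08 and -0.07).

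Of 56 other genes of semaphorin and plexin signalling, written as a list of co-receptors and intracellular partners, 51 were tested between fractions. In wild type 17 were higher (33.3%, against 28.5% of all genes) and 13 lower (25.5%, against 25.6%) in IP. In heterozygous animals 12 were higher and 12 lower (23.5% each, against 22.6% and 22.1%). These shares are near those of all genes and are no result about the pathway. L1cam, an adhesion molecule that joins Nrp1 in the Sema3a receptor, was 97 ± 17.7 CPM in IP and 46 ± 4.06 CPM in Input (log2 difference 1.06, edgeR adjusted p = 1.8e-08). Dpysl3 and Dpysl4, collapsin response mediators that relay semaphorin signals to the cytoskeleton, were higher by 1.07 and 0.98. The 3 lower genes of smallest p were Cfl1, the actin-severing protein cofilin (-1.05), Tyrobp, a microglial adaptor (-2.52), and Pak3, a kinase acting on actin (-0.58).

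Between genotypes none of the listed genes passed in IP (49 tested) or Input (48), and no gene of the table did, by edgeR. At an unadjusted p below 0.05 there were 4 in IP (8.2%, against 4.09% of all genes) and 6 in Input (12.5%, against 7.06%). Mical1, an actin-oxidising enzyme downstream of class A plexins, had the smallest p in IP: 3.45 ± 0.935 CPM in heterozygous against 7.4 ± 2.23 CPM in wild-type animals (log2 difference -1.09, unadjusted p = 0.0045 by edgeR). Next in IP were Cntn2 (-0.53) and Nrcam (-0.21), also lower. In Input the genes of smallest p, Rac1 (0.22), Cfl1 (0.19) and Crmp1 (0.26), were higher in heterozygous animals. Over the list, 26 of 49 genes were above 0 in IP and 25 of 48 in Input.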

How the data were processed

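The deposited values are raw read counts for 20 cortical Smart-seq2 libraries from 10 animals, and the authors counted with HTSeq on mm10, as the submitters' processing notes list. The HTSeq version, the aligner, the annotation and the strand setting are not given. Counts were tested with edgeR 4.0.16 in R 4.3.3, using filterByExpr (count minimum of 10), TMM, robust quasi-likelihood F tests and Benjamini-Hochberg adjustment over all genes tested, at 0.05. Genotype was tested within each fraction. For IP against Input all 16 libraries entered 1 model that carried the animal as a blocking term, since Input is an aliquot of the IP lysate. Residuals of the 2 fractions of an animal correlated with r from 0.0545 to 0.217 over 14797 genes, and 7 of 8 animals were closest to their own pair. Each library comes from 1 animal, so the genotype p-values measure the spread between animals. Those of IP against Input measure the spread of the difference within animals.

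Members and lists were chosen with earlier results of these data known. Values in every sample are given for the 5 called members changing most in each direction in wild-type IP against Input with a mean of at least 5 CPM, for the 4 members of smallest p in each genotype comparison, and for both neuropilins. Other values named were chosen after they were seen. The fits were tested on simulated data. Alternatives were RLE size factors, DESeq2 1.42.0, limma-voom (limma 3.58.1), other count filters, no replicate block, the form of the animal name, adding the IX and IXX libraries, and leaving out each animal.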

Additional observations from a re-analysis of the deposited data

Results flagged for a closer look

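In wild-type Input, Sema6a was 25.8 CPM in wtBT13, while the other 4 libraries lay between 17.0 and 19.3 CPM. The gap to the nearest library was 0.735 of the group's range, above Dixon's critical value of 0.71 for 5 samples. Of 24 groups of values tested this was the 1 that stood out, and chance alone marks about 1 in 20. Without wtBT13 the IP-to-Input difference of Sema6a in wild type was -0.44 against -0.45 with it, and the call was lost (edgeR adjusted p = 0.059).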

How the results depend on the processing

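No member was called between genotypes, or in the test of the difference between fractions, under any alternative run. Without the replicate block, 13 members were higher and 2 lower in wild-type IP, as with it. Leaving out 1 animal gave 11 to 14 higher and 1 to 2 lower members in wild type, and 7 to 9 higher and 0 to 1 lower in heterozygous animals. Calls were also gained in wild type: Sema3d, Sema5a and Sema6d without a filter on low counts (16 higher), Sema3d and Sema6d without wt736, Sema3d without hetBT13, and Sema5a without wtBT14. With RLE size factors, or a count minimum of 50, 1 member (Sema6a) was lower in heterozygous IP, against 0. Alternatives for single members were followed for those named by the rule or called, not for all 31. Among these, the directions that reversed were: Sema4d between genotypes in IP, -0.028, was 0.00286 with limma-voom, 0.023 in numbered animals only, and -0.11 to 0.075 with 1 animal left out. In heterozygous IP against Input, Sema5b (0.10) fell between -0.062 and 0.33, and Sema4b (0.21) between -0.054 and 0.40, with 1 animal left out. Over all genes, calls between genotypes rose from 0 to 28 in Input without a filter, from 0 to 3 in IP with DESeq2, and the difference between fractions from 0 to 11 without a filter. Between genotypes, no paired analysis was possible because the heterozygous and wild-type animals compared share a single number, BT13 (hetBT14 has only IX and IXX libraries). Sema3g and Sema4c had too few counts to pass the main filter in any comparison.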
